A study of Mus musculus and Homo sapiens with 22 samples.

Results

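H/ACA box small nucleolar RNAs (snoRNAs) were followed through tau aggregates of human cells and through the insoluble and tau-bound RNA of mouse brain. Members were taken by name: genes whose symbol is SNORA and a number in the human files, and Snora and a number in the mouse files. There were 101 members among 23737 human genes listed and 42 among 45093 mouse genes listed, where mouse symbols were matched from gene identifiers. The 42 mouse genes carry 40 distinct symbols, because Snora16a and Snora43 each occur in 2 copies.

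H/ACA snoRNAs are short, stable RNAs of the nucleolus, named for a hinge box that joins a pair of hairpins and an ACA box that follows them. Each assembles with the proteins DKC1, NHP2, NOP10 and GAR1, and most pair with a ribosomal RNA to place a pseudouridine, which the synthase DKC1 makes. SNORA73A and SNORA73B, together known as U17, act in the cleavage of the ribosomal RNA precursor instead of guiding a modification. Most vertebrate H/ACA snoRNAs are cut from introns of host genes, many of which encode ribosomal proteins or are long non-coding RNAs of the SNHG family.

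The series holds 22 samples in 10 groups, of which 16 libraries gave values for members. The human cells were HEK293 biosensor cells, an embryonic kidney line that expresses P301S tau repeat domain joined to CFP and YFP, and both of their groups had received 200 ug of clarified brain homogenate from P301S mice for 24 h. RNA came from tau aggregates, pelleted by differential centrifugation and then sorted by their fluorescence (n = 2), and, as the comparison, from the whole cells (total RNA, n = 2), with 1 plate per replicate. Mouse brain RNA came from rTg4510 animals, named P301L here, and from rTg21221 animals, named WT here. In the P301L animals the alleles are Camk2a-tTA, tetO-MAPT*P301L and a tdTomato-Syp/EGFP reporter that the WT animals lack. In the WT animals they are Camk2a-tTA and tetO-MAPT*wt. The Camk2a promoter confines human tau of either kind mainly to excitatory neurons of the forebrain. From each genotype there were RNA immunoprecipitated with the tau-12 antibody after 1% sarkosyl extraction (IP), RNA of the 1% sarkosyl-insoluble fraction, and total RNA, with n = 2 in each of the 6 groups. Ages were not given, and the P301L IP samples carry P301S in their titles but P301L in their strain, which was followed. The other 6 samples, HEK293 cells at 96 h, had no values per gene and were not analysed here.

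The aggregate libraries held 1.19 M and 0.879 M reads and the HEK293 total libraries 13.7 M and 13.8 M, while mouse libraries ranged from 2.49 M (P301L IP replicate 1) to 10.5 M (P301L IP replicate 2). Levels are FPKM, fragments per kilobase of RNA and per 1 M reads. On an RNA of 134 bases, the median length of the human members, 1 read equalled 6.28 and 8.49 FPKM in the aggregate libraries and 0.545 and 0.541 FPKM in the total libraries, so a member with few reads is known far less precisely in aggregates. HEK293 total RNA held VIM at 190 to 197 FPKM and KRT18 at 18.1 to 19.5 FPKM. Mouse total RNA held the neuronal Snap25 at 393 to 568 FPKM and the astrocytic Slc1a2 at 204 to 305 FPKM, with the liver gene Alb at no more than 0.111 FPKM. Other markers of these cell types varied more between the mouse total libraries. The astrocytic Gfap ranged from 59.9 to 361 FPKM and Aqp4 from 46.7 to 160 FPKM. The neuronal Slc17a7 ranged from 16.3 to 73.6 FPKM and Rbfox3 from 15.7 to 48.9 FPKM, while Gad1 stayed at 98.8 to 110 FPKM. Fewer cells of a type and less of an RNA per cell cannot be told apart in such bulk samples.

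H/ACA snoRNAs took up a far larger share of the reads in HEK293 aggregates than in total RNA, and a smaller share in the mouse fractions than in mouse total RNA. In aggregates the share was 1.43% (95% Wilson interval 1.41 to 1.45%) and 2.98% (2.95 to 3.02%), against 0.0363% (0.0354 to 0.0374%) and 0.0451% (0.044 to 0.0463%) in HEK293 total RNA. Per 1 M reads, members averaged 22040 ± 11000 in aggregates and 407 ± 62.1 in total RNA (SD, n = 2 each). The human groups did not overlap. With 2 libraries a group, an exact permutation test of such a share cannot reach 0.05. In mouse brain, members averaged 20.1 ± 2.28 reads per 1 M in P301L IP, 18.1 ± 6.71 in P301L sarkosyl-insoluble RNA and 117 ± 38.2 in P301L total RNA (SD, n = 2 each). For WT animals the averages were 14.4 ± 4.14 in IP, 19.8 ± 5.01 in sarkosyl-insoluble RNA and 124 ± 116 in total RNA. Even the lowest total library, WT replicate 1 at 41.8 reads per 1 M, lay above all 8 IP and sarkosyl libraries, whose highest was 23.4. Intervals and floors here cover counting error only.

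**Figure D1:**
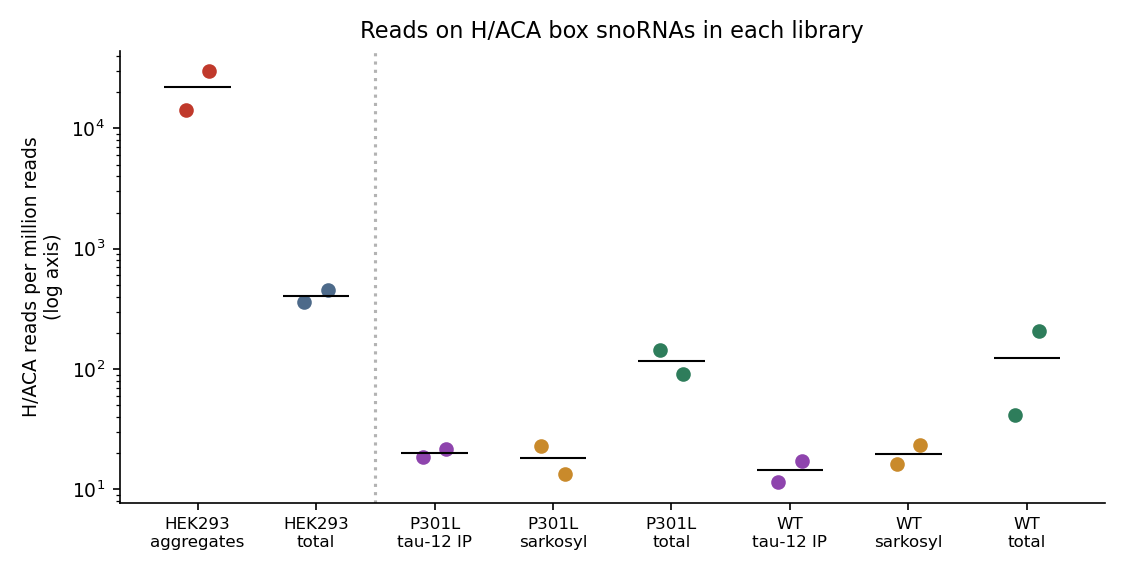
Reads on H/ACA snoRNAs per 1 M reads (log axis) in each of the 16 libraries, with a line at each group mean; human groups stand left of the dotted line and mouse groups right of it. The 2 aggregate libraries lie above both HEK293 total libraries, whereas the 8 mouse IP and sarkosyl libraries lie below all 4 mouse total libraries.

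The other class of snoRNAs, the C/D box RNAs that guide ribose methylation, also took a larger share in aggregates, 0.388% and 0.812%, against 0.0338% and 0.0392% in total RNA. In aggregates the H/ACA share was thus well above the C/D share in both libraries, while in total RNA the classes lay close together. Most of the H/ACA reads in aggregates, 68.5% and 68.0%, lay on SNORA73A and SNORA73B alone. The higher H/ACA share there is therefore largely that of 1 pair and not of the class at large. This difference between the classes was not tested. In mouse brain the C/D share was lower in IP than in total RNA too. It was 0.00647% and 0.00672% in P301L IP, against 0.0471% and 0.0175% in P301L total RNA. In WT animals it was 0.00166% and 0.0042% in IP, against 0.00545% and 0.0318% in total RNA. Sarkosyl-insoluble RNA held 0.0124% and 0.00481% in P301L, below total RNA, and 0.0024% and 0.00803% in WT, which overlapped with total RNA.

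Member by member, 91 of the 101 human genes had reads in at least 1 HEK293 library and 10 had none. Of the 91, both aggregate libraries lay above both total libraries for 58, both lay below for 13, and the libraries overlapped for 20. Over all 18396 genes with reads, both aggregate libraries lay above for 34.0% and below for 31.0%. Among C/D genes with reads, 62 of 128 lay above, 19 below and 47 overlapped. The median level in total RNA was 17.1 FPKM for the 58 higher members, 17.7 FPKM for the 13 lower ones and 6.81 FPKM for the 20 that overlapped. Lengths were alike too, with medians of 134, 132 and 132 bases, so neither level in total RNA nor length set the higher members apart from the lower ones by its median.

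The fit across all genes kept those for which the shallowest library was expected to hold 10 reads or more, and 30 members passed. Of these, 28 passed through the aggregate libraries alone, so they had to be higher there, and only SNORA73A and SNORA73B also passed on their reads in total RNA. Called genes (limma on log2(FPKM + 1), Benjamini-Hochberg adjusted p under 0.05) were higher for 26.3% and lower for 26.1% of 10207 genes, and 29 of the 30 members were called higher and 0 lower. By voom on recovered reads 30 were called higher and 0 lower, and no member was lower at an unadjusted p under 0.05 in either fit. The median difference was 4.93 on the log2 scale over these 30, beside 4.10 over 25 C/D genes that passed, all called higher, and 0.02 over all genes. These medians depend on the filter: the members' median was 3.48 over 54 members at 3 expected reads, 1.71 over 87 at 1 FPKM in at least 2 libraries and 1.53 over all 91 with no filter, beside 0.78 over 128 C/D genes with no filter. With the trend of the differences with gene length removed, the 30 members had a median of 3.28 and the 25 C/D genes 2.00. In another fit the 10 reads had to be expected from total RNA alone, which the aggregates cannot influence but which favours members high in total RNA. Of 3 members fitted, SNORA73A and SNORA73B were higher, where 23.7% of 9817 genes were, and SNORA40 was lower, where 27.9% were. SNORA40 had failed the main filter and passed here through total RNA alone, so it had to be lower.

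**Figure D2:**
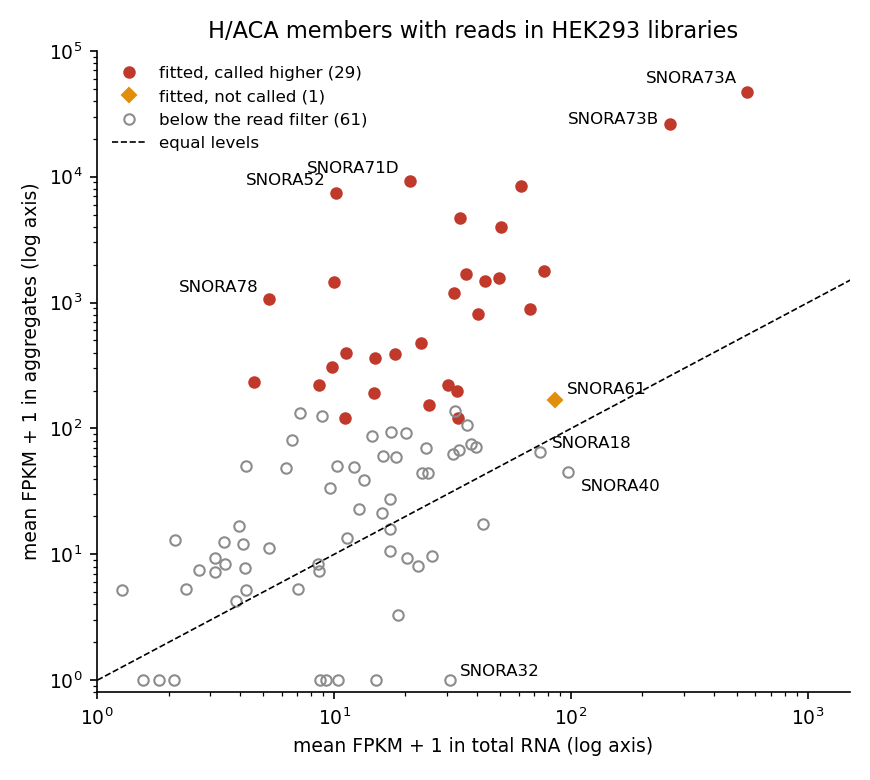
Mean FPKM + 1 in aggregates against mean FPKM + 1 in total RNA (both log axes) for the 91 H/ACA members with reads in HEK293 libraries, marked by whether they passed the read filter and were called. The SNORA73 pair lies highest on both axes, SNORA52 and SNORA78 are low in total RNA and high in aggregates, and SNORA40 and SNORA32 lie under the line of equal levels.

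The U17 pair was the most abundant in both groups. SNORA73A stood at 31837 and 62678 FPKM in aggregates, against 444 and 662 FPKM in total RNA, from 7794 and 11345 reads in aggregates and 1253 and 1881 in total RNA. Its means differed 85.5-fold and its log2 difference was 6.36 ± 0.41 (SE; adjusted p = 0.00152 by limma where the filter used total RNA alone). SNORA73B stood at 16009 and 36603 FPKM in aggregates, against 196 and 324 FPKM in total RNA, a log2 difference of 6.58 ± 0.47 and a 101-fold difference of means. Together the pair held 68.5% and 68.0% of all H/ACA reads in aggregates, against 36.0% and 44.5% in total RNA. The 10 most abundant members held 92.0% and 92.1% in aggregates, against 54.6% and 62.1% in total RNA, so the aggregate reads were spread over fewer members. The copies can be near-identical in sequence, and the authors' counting could have split reads between them, as it could within the other families.

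The SNORA71 family, guides also known as U71, followed, and all 5 of its members were higher in aggregates. Summed over the family, the level was 11490 and 28280 FPKM in aggregates, against 138 and 161 FPKM in total RNA. SNORA71A was the leading copy in total RNA at 51.2 and 69.7 FPKM, with 4427 and 12536 FPKM in aggregates. SNORA71D was much lower in total RNA, at 21.8 and 17.8 FPKM, yet reached 5633 and 12808 FPKM in aggregates, level with SNORA71A. SNORA71B, at 278 and 498 FPKM in aggregates and 15.6 and 18.4 FPKM in total RNA, and SNORA71E, at 140 and 328 FPKM in aggregates and 2.77 and 4.39 FPKM in total RNA, remained far below both. Copies of 1 family thus differed in log2 difference between 4.38 ± 0.29 for SNORA71B and 8.68 ± 0.40 for SNORA71D. That difference between copies was not tested.

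SNORA52 had the largest difference of the fitted members. Its level was 4773 and 10090 FPKM in aggregates, against 8.18 and 10.3 FPKM in total RNA, a log2 difference of 9.41 ± 0.37. Because it had only 15 and 19 reads in total RNA, it was scarce there, yet it was the fifth most abundant member in aggregates. SNORA78 had 755 and 1389 FPKM in aggregates, against 5.75 and 2.85 FPKM in total RNA from 10 and 5 reads, a log2 difference of 7.65 ± 0.39. SNORA47 had 1000 and 1897 FPKM in aggregates, against 7.94 and 9.98 FPKM in total RNA, a log2 difference of 7.12 ± 0.32. All 3 lay below the median member in both total libraries (12.0 and 10.4 FPKM), and their groups did not overlap.

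Other abundant guides were higher too, by different amounts. SNORA62 had 3877 and 5475 FPKM in aggregates, against 33.9 and 31.7 FPKM in total RNA, a log2 difference of 7.09 ± 0.18. SNORA64 had 2474 and 5546 FPKM in aggregates, against 51.2 and 48.1 FPKM in total RNA, a log2 difference of 6.19 ± 0.39. SNORA70 had 1259 and 2327 FPKM in aggregates, against 69.3 and 83.2 FPKM in total RNA, a log2 difference of 4.48 ± 0.31. SNORA48 had 505 and 1256 FPKM in aggregates, against 50.3 and 82.1 FPKM in total RNA, a log2 difference of 3.61 ± 0.49.

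A further 16 fitted members, all called higher, spread over a wide range. SNORA67 had 1112 and 2268 FPKM in aggregates, against 36.3 and 33.8 FPKM in total RNA (log2 difference 5.46 ± 0.34). SNORA68 had 974 and 1977 FPKM in aggregates, against 31.3 and 53.4 FPKM in total RNA (5.05 ± 0.42). SNORA57, at 548 and 1849 FPKM in aggregates and 29.9 and 32.1 FPKM in total RNA, differed by 4.98 ± 0.57, and its aggregate libraries lay further apart than those of SNORA67 and SNORA68. At the lower end, SNORA16A had 215 and 183 FPKM in aggregates, against 30.4 and 33.3 FPKM in total RNA (2.6 ± 0.11), and was the only fitted member with the second aggregate library below the first. SNORA21 had 70.1 and 233 FPKM in aggregates, against 22.1 and 26.3 FPKM in total RNA (2.36 ± 0.56). SNORA6 had the smallest difference of those called, with 89.2 and 151 FPKM in aggregates, against 37.3 and 27.3 FPKM in total RNA (1.83 ± 0.29). Among members too shallow for the fit, SNORA33 stood highest in aggregates, at 45.3 and 228 FPKM, against 30.3 and 32.3 FPKM in total RNA.

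The order of abundance in total RNA carried over to aggregates only in part. The 8 members highest in total RNA were SNORA73A, SNORA73B, SNORA40, SNORA61, SNORA70, SNORA18, SNORA48 and SNORA71A, and 4 of these were among the 8 highest in aggregates. SNORA61 had 97.1 and 236 FPKM in aggregates, against 75.3 and 93.1 FPKM in total RNA, and was the only fitted member not called (0.85 ± 0.43). Its value without aggregate replicate 1 was 1.49 and without aggregate replicate 2 it was 0.21. SNORA18 overlapped between groups, with 76.5 and 51.7 FPKM in aggregates and 75.3 and 70.3 FPKM in total RNA. Members of like abundance in total RNA thus differed widely in aggregates.

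SNORA40 went the other way. It stood at 33.4 and 54.2 FPKM in aggregates, from 5 and 6 reads, against 98.6 and 94.3 FPKM in total RNA, from 170 and 164 reads. Where the filter used total RNA alone its log2 difference was -1.16 ± 0.23 (adjusted p = 0.0132, limma). At 10 expected reads it passed only through total RNA, the group in which it was higher, so this p-value is no support for a fall. Both aggregate libraries lay below both total libraries. Further members had no aggregate reads at all, although they were well covered in total RNA.

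SNORA32 had 0 reads in both aggregate libraries, against 51 and 48 reads in total RNA, where it stood at 30.8 and 28.7 FPKM. A count of 0 allows up to 12.0 FPKM over both aggregate libraries (3 reads in the group), so SNORA32 was at least 2.48-fold lower. SNORA2A likewise had 0 aggregate reads, against 12.4 and 15.6 FPKM in total RNA, and was at least 1.30-fold lower. SNORA72 and SNORA19 had 0 aggregate reads too, with total means of 8.28 and 9.38 FPKM that lie under what a count of 0 allows, so a difference was not detectable at this depth. In all, 8 members had reads in total RNA and none in aggregates, and 0 members had the opposite pattern. The aggregate libraries held 1.19 M and 0.879 M reads, against 13.7 M and 13.8 M in total RNA, so a count of 0 is far easier to reach in aggregates. Only 2 of the 8 lay above what a count of 0 allows, and the share of all genes with this pattern was not counted. Of the lower members that kept a few aggregate reads, SNORA12 had 17.2 and 15.5 FPKM in aggregates from 3 and 2 reads, against 31.8 and 51.3 FPKM in total RNA from 64 and 104 reads. SNORA29 had 1 read in each aggregate library, against 34 and 49 reads in total RNA, and SNORA53 had 0 and 1, against 47 and 74. Among families, both copies of SNORA2 were at 0 in aggregates, while all 3 copies each of SNORA5 and SNORA80 were higher there. For SNORA2B the total mean of 7.7 FPKM lies under the 10.6 FPKM that a count of 0 allows, so a difference was not detectable. Some of the higher copies rest on few aggregate reads, SNORA5B on 4 and 8 and SNORA80E on 12 and 3.

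**Figure D3:**
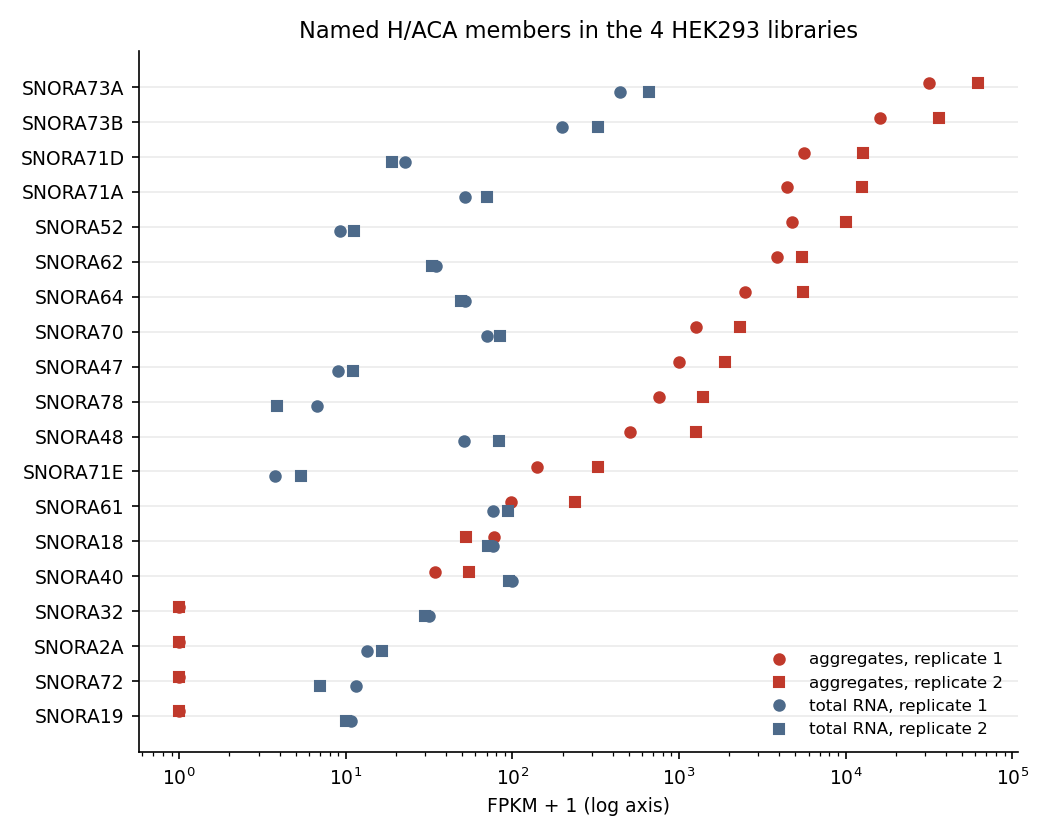
FPKM + 1 (log axis) of the H/ACA members named for HEK293, with 1 point per library; red marks aggregates, blue marks total RNA, circles are replicate 1 and squares replicate 2. From SNORA73A down to SNORA71E every aggregate point lies right of the total points, and SNORA32, SNORA2A, SNORA72 and SNORA19 have both aggregate points at 0 FPKM.

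The aggregate libraries differed from each other by a factor that most snoRNAs shared. Among the 36 members with at least 10 reads in each aggregate library, the second was higher in 34, by a median of 2.07-fold and a range of 0.850 to 4.18-fold. The same median was 2.04 over 31 C/D genes and 0.996 over 10075 genes. Between the total libraries, the median over 68 members with at least 10 reads in each was 1.01-fold. Leaving out 1 library leaves 1 sample in its group, which is then assumed to vary like the other group, and it moved 13 of the 30 fitted members by more than 1.5-fold. Of those named, SNORA73B was 7.18 without aggregate replicate 1 and 5.98 without replicate 2, SNORA71D was 9.27 and 8.09, SNORA71A was 7.69 and 6.19, SNORA71E was 6.19 and 4.97, and SNORA48 was 4.27 and 2.95, in the same order. The size of each rise therefore depends on the aggregate library. Reads on mitochondrial and small RNA genes together were 5.05% and 8.32% in aggregates, against 3.54% and 3.64% in total RNA. With these genes left out of the scaling, 29 of the 30 fitted members were called higher, where 2901 of 10207 genes were. Because 28 of the 30 passed the filter through the aggregates alone, that count is no further support for their direction.

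None of the fitted mRNAs of H/ACA core proteins and assembly factors was called higher in aggregates. Of the 4 core proteins, 2 were lower in aggregates and 0 higher. GAR1, a structural subunit, had 11.0 and 9.93 FPKM in aggregates, against 32.2 and 36.3 FPKM in total RNA (log2 difference -1.62 ± 0.11, adjusted p = 0.00181, limma). DKC1, the synthase, had 48.9 and 56.2 FPKM in aggregates, against 74.2 and 73.2 FPKM in total RNA (-0.48 ± 0.10, adjusted p = 0.0151). NHP2 differed by -0.19 ± 0.09 and NOP10 by -0.99 ± 0.40, and neither was called. Of 13 assembly and trafficking factors, 7 were lower and 0 higher, with the smallest p-values for RPAP3 (-1.27 ± 0.12), NOLC1 (-0.67 ± 0.08), ZNHIT3 (-0.95 ± 0.12) and ZNHIT6 (-0.55 ± 0.11). All 4 C/D core proteins were lower as well, FBL by -0.79 ± 0.09. These counts stand beside the 26.1% of all genes called lower.

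Synthases that work without a guide RNA went in both directions. Of 11 fitted, 4 were higher and 1 lower, where 26.3% of all genes were higher and 26.1% lower. Among them were PUS1 at 15.4 and 22.8 FPKM in aggregates, against 10.1 and 10.3 FPKM in total RNA (0.82 ± 0.20), RPUSD4 (0.62 ± 0.10), RPUSD1 (0.49 ± 0.11) and the lower PUS7L (-0.79 ± 0.13). Among 8 nucleolus genes, beside the same shares over all genes, 1 was higher and 3 lower, with NPM1 at -1.50 ± 0.13 and NCL at -1.41 ± 0.12. TERC, the telomerase RNA, which carries an H/ACA domain but is no member, was higher at 454 and 549 FPKM in aggregates, against 148 and 153 FPKM in total RNA (1.72 ± 0.12, adjusted p = 0.0018). TERC was not tested against the members.

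Genes that enclose the mouse members gave a view of possible host transcripts. By RefSeq positions on GRCm38.p6, all 41 mouse members with a position lie within another gene, 29 in protein-coding genes and 12 in long non-coding RNA genes, with strand not compared. Positions were matched by symbol, so both copies of Snora16a were given the same position, as were both copies of Snora43. Each of these copies is counted among the 12. Human positions were not used here, so the human genes of the same names are set beside the human members by name only. In 16 such pairs both could be fitted in HEK293 cells, over 13 distinct genes, of which 2 were higher in aggregates, 6 lower and 5 not called. Of these members only the U17 pair also passed on total RNA, so the side on which the others fell was fixed by the filter and is not counted here. SNORA52 is paired with RPLP2, a ribosomal protein gene at 260 FPKM in aggregates and 521 FPKM in total RNA (log2 difference -1.0 ± 0.11). SNORA64 and SNORA78 are paired with RPS2, at 1377 FPKM in aggregates and 2138 FPKM in total RNA (-0.64 ± 0.13). The U17 pair goes with SNHG3, a long non-coding RNA at 51.8 FPKM in aggregates and 42.9 FPKM in total RNA (0.27 ± 0.10, not called). Pairs whose member was too shallow for the fit also included lower members. SNORA41 had 8.62 FPKM in aggregates and 24.8 FPKM in total RNA, with EEF1B2 at 156 FPKM in aggregates and 337 FPKM in total RNA. SNORA2B had 0 FPKM in aggregates and 7.70 FPKM in total RNA, with KANSL2 at 16.5 FPKM in aggregates and 14.9 FPKM in total RNA. A count of 0 allows up to 10.6 FPKM for SNORA2B, so its difference was not detectable at this depth. Reads of unspliced host RNA that cross a member would count for the member, and this was not tested.

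**Figure D4:**
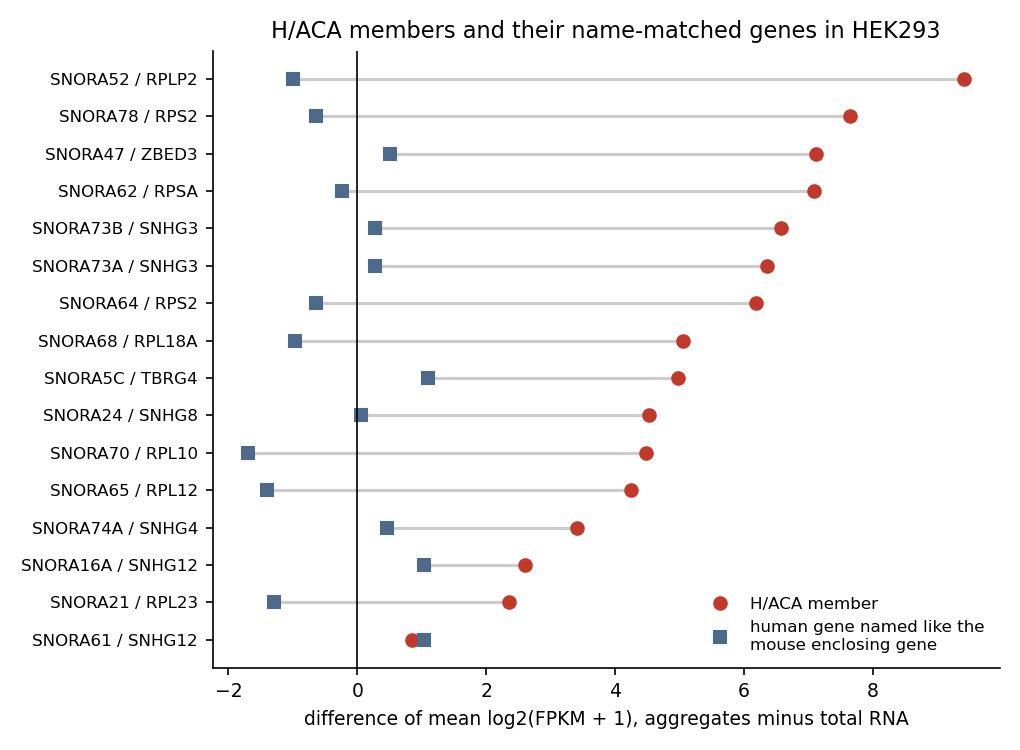
Difference of mean log2(FPKM + 1), aggregates minus total RNA, for 16 H/ACA members (circles) and for the human genes that bear the name of the mouse enclosing gene (squares). For SNORA52 with RPLP2 the circle and the square stand at 9.41 and -1.0, the members shown having passed a read filter that favours those higher in aggregates.

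Mouse brain gave a different picture. Of the 42 mouse members, 18 were listed at 0 in all 12 libraries, Snora73a and Snora52 among them, and 24 had reads. Of the 18 listed at 0, 16 have a human namesake with reads in HEK293 libraries, and a listing at 0 is not taken as absence. Only 9 members had reads in every library, and 19 of the 24 had fewer than 100 reads over all 12. Snora73b and Snora23 alone passed the filter on expected reads. They held between 14.9% and 39.1% of the H/ACA reads in each IP library, against between 79.2% and 90.4% in each total library.

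Snora73b, the mouse U17b, lies at chr4:132352322-132352526 within the long non-coding RNA gene Snhg3. It had 1.96 and 10.2 FPKM in P301L IP, 46.0 and 13.02 FPKM in P301L sarkosyl-insoluble RNA, and 317 and 246 FPKM in P301L total RNA. In WT animals it had 2.57 and 13.2 FPKM in IP, 34.9 and 48.3 FPKM in sarkosyl-insoluble RNA, and 121 and 484 FPKM in total RNA. In each genotype, both IP libraries lay below both sarkosyl libraries, and both sarkosyl libraries below both total libraries.

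Snora23 lies at chr7:110046364-110046547 within Ipo7, a gene for a nuclear import receptor. It had 37.0 and 30.6 FPKM in P301L IP, 5.96 and 9.33 FPKM in P301L sarkosyl-insoluble RNA, and 319 and 164 FPKM in P301L total RNA. In WT animals it had 6.44 and 13.7 FPKM in IP, 2.78 and 9.60 FPKM in sarkosyl-insoluble RNA, and 44.5 and 473 FPKM in total RNA. It too was lower in both fractions than in total RNA, but its order within the fractions differed from that of Snora73b: in P301L animals the IP libraries lay above the sarkosyl ones. The WT total libraries stood far apart for this gene, though both lay above every fraction of WT brain.

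The comparison of IP with total RNA gave calls in both genotypes. In P301L animals both fitted members were called lower, where 21.1% of 13012 genes were: Snora73b by -5.60 ± 0.82 (adjusted p = 0.000272, limma) and Snora23 by -2.73 ± 0.84 (adjusted p = 0.016). In WT animals both were called lower, where 18.8% of genes were: Snora73b by -5.10 ± 0.82 (adjusted p = 0.000613) and Snora23 by -3.81 ± 0.84 (adjusted p = 0.00432). The Snora23 call in P301L was lost without P301L IP replicate 1 (-2.86, adjusted p = 0.0527), without P301L IP replicate 2 (-2.60, adjusted p = 0.062) and without P301L total replicate 1 (-2.25, adjusted p = 0.0904). Snora73b stayed lower and called in both genotypes whichever library was left out. The median difference over all genes was 0.16 in P301L and 0.07 in WT.

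Sarkosyl-insoluble RNA against total RNA gave 2 members called lower in P301L, where 3.89% of genes were: Snora73b by -3.45 ± 0.82 (adjusted p = 0.0271) and Snora23 by -4.76 ± 0.84 (adjusted p = 0.0107). Leaving out either P301L sarkosyl library ended both calls, with Snora73b at -4.32 and -2.58 and Snora23 at -4.48 and -5.05 without replicates 1 and 2, in that order, and without P301L total replicate 2 Snora73b was at -3.63 and not called. In WT animals 0 of 2 were called by limma or by voom, while both had an unadjusted p under 0.05 in each fit, with Snora73b at -2.53 ± 0.82 and Snora23 at -4.54 ± 0.84. Few genes of any kind were called in that comparison, 0.246%. Without WT total replicate 1, Snora23 was at -6.23 and called. These comparisons share their total libraries with those of the IPs.

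In IP against sarkosyl-insoluble RNA the 2 members had differences of opposite sign in each genotype, which were not tested against each other. In WT animals Snora73b was called lower, -2.56 ± 0.82 (adjusted p = 0.037), where 15.8% of genes were, and Snora23 was at 0.72 ± 0.84. That call was lost without WT IP replicate 1 (-1.57) and without WT sarkosyl replicate 1 (-2.79) or replicate 2 (-2.34). In P301L animals 0 of 2 were called, where 21.2% of genes were called in either direction, with Snora73b at -2.16 ± 0.82 (adjusted p = 0.0795) and Snora23 at 2.03 ± 0.84 (adjusted p = 0.101). Both had an unadjusted p under 0.05 with limma and 0 with voom. Without P301L IP replicate 2, Snora73b was at -3.12 and called.

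No difference between the genotypes was detectable in total RNA or in IP enrichment over it. Between P301L and WT total RNA, Snora73b differed by 0.20 ± 0.82 and Snora23 by 0.65 ± 0.84, and 0 of 2 were called, where 15.2% of genes were. The difference in IP enrichment between P301L and WT was -0.51 ± 1.15 for Snora73b and 1.08 ± 1.19 for Snora23, with 0 of 2 called, where 10.3% of genes were. For both questions the count was also 0 with voom and at an unadjusted p under 0.05. The standard errors leave room for differences of severalfold in either direction. In the IP libraries themselves, which were not tested between genotypes, Snora23 had 37.0 and 30.6 FPKM in P301L and 6.44 and 13.7 FPKM in WT. These did not overlap, but the WT values rest on 9 and 14 reads. Snora73b did overlap, at 1.96 and 10.2 FPKM in P301L and 2.57 and 13.2 FPKM in WT. The share of all genes without overlap between the IPs was not counted, so no difference is read from Snora23.

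**Figure D5:**
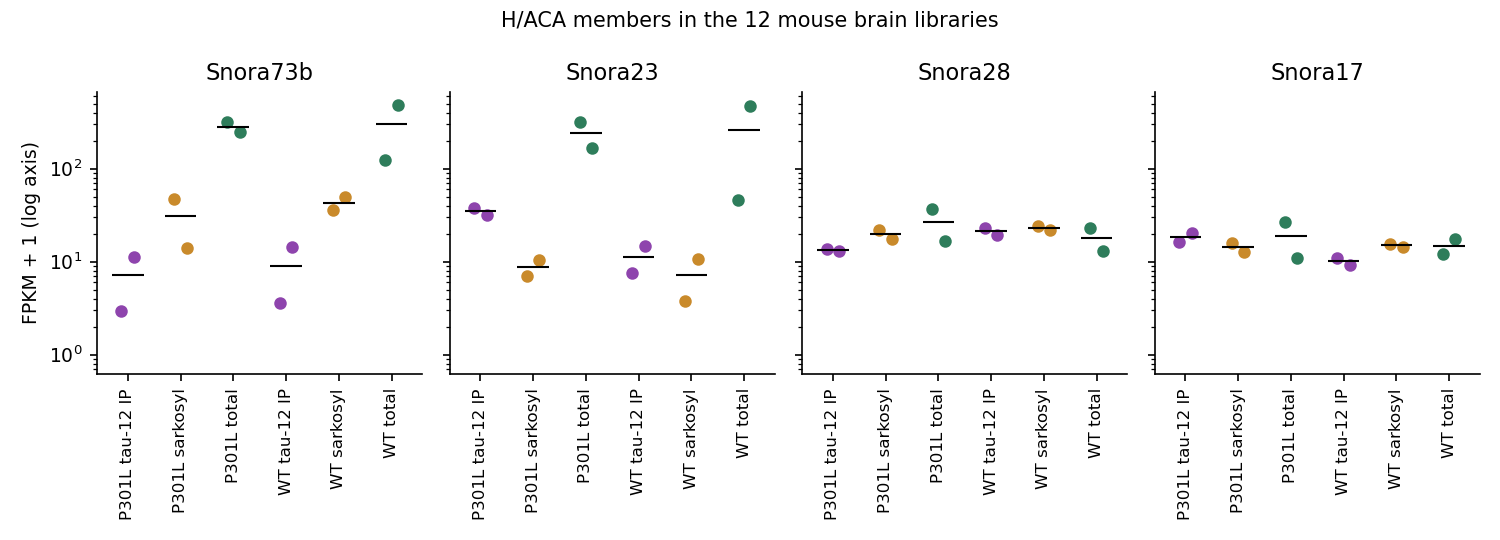
FPKM + 1 (log axis) of Snora73b, Snora23, Snora28 and Snora17 in the 12 mouse brain libraries, with 1 point per library and a line at each group mean. Snora73b and Snora23 are highest in total RNA of both genotypes, and all points of Snora28 and Snora17 lie between 8.18 and 35.4 FPKM.

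The less abundant mouse members were too shallow for the fit and are given as values. Snora28, within the translation factor gene Eif5, had 12.6 and 12.0 FPKM in P301L IP, 20.7 and 16.5 FPKM in P301L sarkosyl-insoluble RNA, and 35.4 and 15.5 FPKM in P301L total RNA. In WT animals it had 21.8 and 18.4 FPKM in IP, 23.2 and 20.9 FPKM in sarkosyl-insoluble RNA, and 22.2 and 12.1 FPKM in total RNA, so its IP libraries lay below the total libraries in P301L and overlapped with them in WT. Snora17, within Snhg7, averaged 17.4 ± 3.06 FPKM in P301L IP and 17.8 ± 11.0 FPKM in P301L total RNA, and 9.08 ± 1.26 FPKM in WT IP and 13.9 ± 3.88 FPKM in WT total RNA (SD, n = 2 each). Snora30, within Srcap, averaged 13.8 ± 6.43 FPKM in P301L IP and 14.1 ± 7.02 FPKM in P301L total RNA, and 15.4 ± 1.73 FPKM in WT IP and 11.6 ± 9.78 FPKM in WT total RNA. These 3 had 127 to 180 reads in all 12 libraries together. With a filter of 3 expected reads, 5 members could be fitted and 3 were called lower for P301L IP against total RNA, the third being Snora28 at -0.88 ± 0.34 (adjusted p = 0.0495, limma), while in WT animals it was at 0.27 ± 0.34 and not called. The difference between the genotypes was not called for it (-1.16 ± 0.47, adjusted p = 0.157).

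Summed over all members but Snora73b and Snora23, the mouse libraries held 11.2 and 14.0 reads per 1 M in P301L IP, 12.3 and 8.98 in P301L sarkosyl-insoluble RNA, and 20.3 and 9.49 in P301L total RNA. In WT animals the sums were 9.76 and 12.1 in IP, 8.58 and 11.7 in sarkosyl-insoluble RNA, and 8.69 and 19.7 in total RNA. The groups overlapped in both genotypes, so the smaller H/ACA share of the fractions lay with the pair. Snora31, within Tpt1, had 6.17 and 5.87 FPKM in P301L IP and 5.19 and 7.09 FPKM in P301L total RNA, and 9.11 and 2.77 FPKM in WT IP and 1.88 and 11.8 FPKM in WT total RNA, from no more than 9 reads in any library. Snora2b, within Kansl2, had 17.6 and 4.18 FPKM in P301L IP and 4.93 and 1.92 FPKM in P301L total RNA, from 6 reads or fewer in each. Snora47, within Zbed3, had 2.90 and 4.84 FPKM in P301L IP and 17.9 and 5.72 FPKM in P301L total RNA, from no more than 11 reads in any library. Snora35, known as a brain member from an intron of the serotonin receptor gene Htr2c, had 65 reads over the 12 libraries, 9.40 and 5.96 FPKM in P301L IP, 10.5 and 10.3 FPKM in P301L total RNA, 2.06 and 12.7 FPKM in WT IP, and 6.69 and 8.56 FPKM in WT total RNA. Its human counterpart SNORA35 had no reads in HEK293 cells, where HTR2C itself stood at 0.329 FPKM in aggregates and 0.245 FPKM in total RNA.

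Snora73b and its human namesake SNORA73B could be fitted in both species, and their differences had opposite signs: 6.58 ± 0.47 for aggregates against total RNA in HEK293 cells, and -5.60 ± 0.82 and -5.10 ± 0.82 for IP against total RNA in P301L and WT brain. Species, isolation and library kit all differ between these preparations and cannot be told apart, and the difference was not tested. Reads on mitochondrial and small RNA genes in P301L brain were lowest in IP and highest in total RNA, the order of Snora73b and not of Snora23, at 1.84% and 1.66% in P301L IP, 5.82% and 5.12% in P301L sarkosyl-insoluble RNA, and 12.2% and 12.9% in P301L total RNA. With those genes left out of the scaling, the count of members called was the same in all 8 mouse comparisons.

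The mouse mRNAs of the core proteins showed a mixed pattern. In P301L IP against total RNA 1 of 4 was higher, where 35.5% of all genes were, and 2 were lower, Gar1 by 0.71 ± 0.22 (adjusted p = 0.0156), Nhp2 by -1.17 ± 0.25 (adjusted p = 0.00227) and Nop10 by -1.75 ± 0.27 (adjusted p = 0.000386). In WT IP against total RNA 0 were higher, where 19.8% of all genes were, and 2 were lower, Nhp2 by -1.61 ± 0.25 and Nop10 by -1.93 ± 0.27. Of 12 fitted assembly factors, 4 were higher and 1 lower in P301L IP and 0 higher and 2 lower in WT IP, with Znhit3 lower in both (-1.16 ± 0.20 in P301L and -0.92 ± 0.20 in WT). The difference between genotypes was itself called for 2 of the 12, Rpap3 (0.69 ± 0.18, adjusted p = 0.0377) and Nolc1 (0.74 ± 0.19, adjusted p = 0.0358). It was also called for 1 of 11 stand-alone synthases, Pus1 (1.52 ± 0.32, adjusted p = 0.0204). Over all genes 10.3% were called for that difference, in either direction. The other lists were mixed: among 11 fitted stand-alone synthases 5 were higher and 1 lower in P301L IP and 1 higher and 0 lower in WT IP, while of the 4 C/D core proteins only Snu13 was called, lower in P301L IP (-1.57 ± 0.15) and in WT IP (-1.26 ± 0.15). Of 8 nucleolus genes, 3 were higher and 2 lower in P301L IP, and 0 higher and 2 lower in WT IP. In sarkosyl-insoluble against total RNA, 1 of 4 core proteins was lower in P301L, Nop10 by -1.25 ± 0.27 (adjusted p = 0.0225). Dkc1, the synthase subunit, was not called in any mouse comparison.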

How the data were processed

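RNA was sequenced from HEK293 and mouse brain samples. The 24 h files hold FPKM per longest transcript deposited by the authors, per the file headers. The mouse files name no unit, and what the authors deposited there behaves as FPKM. Alignment used STAR 2.6.0c, with builds hg38 and GRCm38.p6, per the submitters' processing notes. Which counter was used, and how it treated strand and reads shared by genes, is not given in the sources used here. Libraries were depleted of ribosomal RNA and primed at random, per the labels' protocols.

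Each FPKM step was turned back into whole reads (100% whole within 0.02), which served depth, filters and voom only. All genes went into limma 3.58.1 (R 4.3.3) as log2(FPKM + 1) with the trend option; this scale understates changes of low genes. The filter multiplied each gene's mean share of reads by the shallowest depth and asked for 10 reads. The 4 HEK293 libraries had a fit of their own (2 residual degrees of freedom), while all 12 mouse libraries shared 1 fit (6). HEK293 replicates are separate plates per the labels, whereas mouse replicates are undescribed, so their p-values measure the spread between libraries, which may be technical. Over 5 simulations of 200 changed genes each, recovery was counted only among changed genes that passed the filter. In HEK293, on average 38.6 of 50 falls and 50 of 50 rises of 2 log2 units passed. Of these the fit recovered 99% and 100%, with 3.39% of calls false. At 1 log2 unit the shares were 58.1% and 69%. For P301L IP against total RNA they were 97.5% and 100% at 2 units, and 46.3% and 54% at 1 unit, with 7.93% false. Simulated replicates held no shift shared by a class of genes, unlike the aggregate libraries.

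The members and lists were chosen with earlier results of these data known. Named human members are up to 10 with the largest called differences per direction, the 8 highest per group and up to 4 with 0 reads in 1 group. Named mouse members are those called and the 8 highest in total RNA and in IP. Pathway genes named are called members of the lists, up to 4 per list and comparison by p, and the uncalled NHP2 and NOP10. Other members, such as SNORA71B, SNORA6, SNORA12 and SNORA35, were named after their values were seen. Alternatives changed filters, pseudocount, scaling, length trend, tool, replicate block and libraries.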

Additional observations from a re-analysis of the deposited data

How the results depend on the processing

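In HEK293 cells 29 to 30 members were called when any 1 library was left out. The read filter still used all HEK293 libraries in those fits, and 28 of the 30 members passed through the aggregates alone. Apart from SNORA73A and SNORA73B, the direction of fitted members was therefore favoured by the filter, and its persistence is no further support. The count depended on that filter: 3 of 3 fitted with reads expected from total RNA alone (2 higher, 1 lower). At 1 FPKM in at least 2 libraries 52 of 87 were called (44 and 8), beside 2935 higher and 2595 lower of 13185 genes. At 3 expected reads 47 of 54 were (45 and 2), beside 2969 and 2647 of 12205. With no filter 44 of 91 were (37 and 7), beside 2343 and 2318 of 18396. Among 184 alternatives for the named human members, 180 kept direction and side of the threshold, and all 4 others concern SNORA61: it was at -0.92 (adjusted p = 0.0386, limma) with the length trend removed and called higher with voom (0.80), with the replicate block (0.85) and without aggregate replicate 1 (1.49). Calls over all genes fell to 1892 and 1679 without total replicate 1 or 2 and rose to 8140 and 8029 without aggregate replicate 1 or 2, beside 5343 in the full fit.

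In mouse brain, leaving out a library gave 1 to 2 members called for P301L IP against total RNA, 0 to 1 for IP against sarkosyl in each genotype, 0 to 2 for P301L sarkosyl against total RNA and 0 to 1 for WT sarkosyl against total RNA. With no filter the count was 1 for P301L IP against total RNA, 0 for WT IP against sarkosyl and 0 for P301L sarkosyl against total RNA. At 1 FPKM it was 0 for WT IP against sarkosyl and 1 for P301L sarkosyl against total RNA, and at 3 expected reads it was 0 for WT IP against sarkosyl. For P301L IP against total RNA it was 3 under each of these 2 filters, all lower, with Snora33 as the third at 1 FPKM and Snora28 at 3 expected reads. With the length trend removed it was 1 for P301L IP against total RNA, 1 for P301L IP against sarkosyl, 0 for WT IP against sarkosyl and 1 for P301L sarkosyl against total RNA. By voom it was 1 for WT IP against total RNA, 0 for WT IP against sarkosyl and 1 for P301L sarkosyl against total RNA. Quantile normalization gave 1 for P301L IP against sarkosyl and 1 for WT sarkosyl against total RNA, and median centring gave 1 for WT sarkosyl against total RNA. The cause was not tested.

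Replicate numbers shared between groups do not pair the samples by any label, and same-numbered deviations correlated at 0.08 in HEK293 and between -0.28 and 0.30 in mouse. With the replicate block, 30 human members were called, 2 mouse members for P301L IP against sarkosyl and 1 for WT sarkosyl against total RNA; the block changed no other count of members called.

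With 2 libraries a group, spread is poorly known. In aggregates, 1 read of a typical member equals over 6 FPKM, so members below this resolution cannot be ranked. Replicates differed by more than sampling noise alone, most of all in P301L total RNA (mean squared z 15.4) and least in HEK293 total RNA (2.33).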
